A study of Homo sapiens with 12 samples.

Results

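The genes described here are 10 members of the prostaglandin pathway, chosen by name: PLA2G4A, PTGS1, PTGS2, PTGES, PTGES2, PTGES3, HPGD, PTGR1, PTGER2 and PTGER4. Each symbol was found once in both deposited tables, so that 10 of 10 members were present among 62082 gene rows. The mRNA of MCF10A cells, a non-tumorigenic human breast epithelial line, was sequenced in 12 libraries, 3 in each of 4 groups. The first pair of lines kept intact p53 (p53 WT) and carried either the pBabepuro vector or stably expressed H-RasV12, a constitutively active form of the H-Ras GTPase, delivered by retrovirus. The second pair had p53 deleted by targeting of exon 2 and carried the same vector or the same H-RasV12. All 4 lines grew in DME/F-12 medium with supplements and horse serum, without treatment, and the vector line of each pair was made together with its H-Ras line. Whether a line was a clone or a pool of cells, and whether its 3 libraries came from separate cultures, is not given in the sources used here, so the p-values rest on a spread between libraries that may be purely technical. The comparisons asked how prostaglandin genes differed between vector and H-Ras lines, and whether that difference was the same with and without p53.

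Prostaglandins are lipid mediators that cells make from arachidonic acid and release to act on nearby cells. Cytosolic phospholipase A2 (PLA2G4A) frees arachidonic acid from membrane phospholipids, the cyclooxygenases PTGS1 (COX-1) and PTGS2 (COX-2) turn it into prostaglandin H2, and prostaglandin E synthases turn that into prostaglandin E2. The signal ends when the dehydrogenase HPGD oxidises prostaglandin E2 and the reductase PTGR1 reduces the product, and it is read by G protein-coupled receptors, of which EP2 (PTGER2) and EP4 (PTGER4) raise cyclic AMP. PTGS1 is commonly described as the constitutive cyclooxygenase and PTGS2 as the one that growth factors, cytokines and oncogenes induce in epithelial cells.

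The promoter sequences of PTGS2, PTGS1 and PLA2G4A are shown because these 3 genes carry the steps from arachidonate release to prostaglandin H2 and their difference with H-Ras was not the same in the p53 backgrounds. RefSeq (GRCh38.p14) gave 14 windows, from 250 bases before to 50 bases after a start, for 10 of 10 members. The PTGS2 window lies at chr1:186680374-186680673 on the minus strand and the PLA2G4A window at chr1:186828699-186828998 on the plus strand. PLA2G4A is the next protein-coding gene after PTGS2 in the RefSeq order of chromosome 1. PTGS1 has 2 windows, at chr9:122370283-122370582 and chr9:122375052-122375351, both on the plus strand. Capitals mark matches, on either strand, to a TATA box (TATAAA), a cAMP response element half-site (CGTCA), an AP-1 site (TGANTCA), a C/EBP site (TTNNGCAA) or the NF-kappaB consensus.
PTGS2: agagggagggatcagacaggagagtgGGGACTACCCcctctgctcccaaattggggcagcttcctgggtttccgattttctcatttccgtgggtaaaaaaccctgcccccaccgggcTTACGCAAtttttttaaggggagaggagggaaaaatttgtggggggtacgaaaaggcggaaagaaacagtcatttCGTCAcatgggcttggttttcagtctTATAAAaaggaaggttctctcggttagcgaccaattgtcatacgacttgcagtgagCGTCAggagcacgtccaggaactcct
PLA2G4A: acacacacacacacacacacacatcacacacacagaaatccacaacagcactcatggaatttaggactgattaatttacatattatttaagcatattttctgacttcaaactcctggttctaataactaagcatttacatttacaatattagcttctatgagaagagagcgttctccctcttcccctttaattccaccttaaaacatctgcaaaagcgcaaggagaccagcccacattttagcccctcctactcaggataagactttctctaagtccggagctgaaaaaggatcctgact
PTGS1, upstream start: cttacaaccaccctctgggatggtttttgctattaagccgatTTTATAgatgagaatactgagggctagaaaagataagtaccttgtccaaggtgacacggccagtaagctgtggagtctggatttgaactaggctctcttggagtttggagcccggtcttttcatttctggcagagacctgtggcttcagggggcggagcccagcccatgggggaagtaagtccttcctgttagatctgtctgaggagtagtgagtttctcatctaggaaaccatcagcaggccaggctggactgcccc
PTGS1, downstream start: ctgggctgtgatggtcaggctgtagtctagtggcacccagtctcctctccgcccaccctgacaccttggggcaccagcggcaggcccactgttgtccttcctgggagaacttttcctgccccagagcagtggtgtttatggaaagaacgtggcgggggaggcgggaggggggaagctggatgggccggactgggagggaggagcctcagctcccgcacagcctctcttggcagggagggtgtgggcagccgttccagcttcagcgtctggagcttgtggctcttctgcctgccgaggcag
In the PTGS2 window the TATA box match began 32 bases before the start (position -32), the half-sites at -58 and 25, the C/EBP match at -133 and the NF-kappaB match at -224. No capitalised match was found in the PLA2G4A window or in the downstream PTGS1 window, and the upstream PTGS1 window held a TATA box match at -208 on the opposite strand. Of 35116 RefSeq windows of this length, 11.5% held the TATA box, 24.6% the half-site, 7.71% the AP-1 site, 10.5% the C/EBP site and 10.2% the NF-kappaB consensus. These matches describe letters in a window and no binding was measured.

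Values are normalised read counts, that is, reads divided by a size factor set within each p53 background. Single-library values were solved from the deposited group means, and the libraries of a group are called A, B and C in falling order of size factor, which cannot be matched to the labelled replicate numbers. Estimated totals ranged from 7862341 to 10058191 reads per library. HRAS was at 717 to 946 in the p53 WT vector libraries and 14809 to 18454 with H-Ras, and at 793 to 878 and 16475 to 18592 without p53. Library A of the p53 WT vector group and library C of the p53 WT H-Ras group stood apart: the chi-square per degree of freedom against their replicates was 21.6 to 26.6, against 4.10 and 2.34 between the other libraries of these groups and 2.19 to 11.1 in the p53-deleted groups. Their median log2 deviation from the mean of the other libraries of their group, over 10 cell cycle genes, was -0.84 and 1.58. Log2 deviations of single libraries below are taken in the same way. The H-Ras differences of the members in p53 WT cells are given below without both as well, and those of the other genes in part. Both were picked for their distance in these same data, so that leaving them out narrows the spread. Adjusted p-values without them are therefore likely too small: 57.8% of all genes were called in p53 WT cells, against 25.6% with all libraries. The 7 epithelial markers summed to 13761 to 14977 in p53 WT vector libraries and 4116 to 5607 with H-Ras, and to 13605 to 15135 and 6378 to 7112 in the p53-deleted pair. CDH1 (E-cadherin) averaged 2041 and 7.11 with vector and H-Ras in the first pair and 3102 and 39.3 in the second, and GRHL2 was at 0 in the p53-deleted H-Ras libraries. EPCAM and ESRP1 were also far lower with H-Ras, with EPCAM at 1094 and 17.7 and at 785 and 108. KRT8 made up most of the H-Ras sums, at 6411 and 3862 and at 5086 and 4853. KRT18 averaged 2370.1 and 823 and then 1763 and 1208, and CLDN4 566 and 310.2 and then 815 and 522. Sums of 6 basal mammary markers were 25669 to 30150.0 with vector and 2684 to 4729 with H-Ras in p53 WT cells, and 33656 to 39480.4 and 8779.9 to 9411 in p53-deleted cells. ITGB4 made up most of the H-Ras sums, at 10279 and 3019 and at 10954 and 8557. The other basal markers were far lower with H-Ras in both pairs, with LAMA3 at 8419 and 426 and at 13514 and 454. The 7 fibroblast markers summed to 215 to 318 and 2927 to 4654, and to 450.2 to 824 and 11983 to 17877, in the same order, with COL1A2 and COL3A1 at 0 in every library. DCN and COL6A3 made up most of the higher sums, with COL6A3 at 10.4 and 875 and at 473 and 13502. COL1A1 was lower with H-Ras, at 108 and 36.5 and at 109.6 and 59.0. Of 4 mast cell markers 0 were detected and 4 of 7 leukocyte markers, PTPRC among them, were at 0 in every group, while the leukocyte sums were 321 to 935, 529.8 to 1385, 139.7 to 161 and 759.6 to 914. In the same order, 5 endothelial markers summed to 163 to 199.8, 655 to 831, 79.2 to 110.1 and 552 to 612, 4 luminal hormone-sensing markers to 313 to 377, 154 to 170.1, 322 to 364 and 141 to 159, and 4 platelet markers to 14.2 or less. ROBO4 and KDR made up most of the endothelial sums, while CDH5 averaged 16.2, 1.61, 1.02 and 0. The 10 cell cycle genes summed to 12816 to 22485 with vector and 6890.4 to 19639 with H-Ras in p53 WT cells. In p53-deleted cells they summed to 24685 to 28698 and 4087 to 6946. The part of these marker and cell cycle values in the results below was not tested, and in bulk RNA fewer cells of a type cannot be told apart from less RNA per cell.

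With H-Ras in p53 WT cells the pathway split: PTGS2 and PLA2G4A rose, PTGS1, PTGES and PTGES2 fell, and PTGR1 rose slightly. Of 10 members, 9 passed the filter of 10 normalised counts in 3 libraries and were tested with limma. PTGER4 passed through the vector group, since 1 H-Ras library reached 10. The filter thus favoured a lower value with H-Ras, and PTGER4 is left out of the count. Of the other 8, 3 were higher and 3 lower at a Benjamini-Hochberg adjusted p under 0.05, where 25.6% of 12441 genes were called, 12.9% higher and 12.7% lower. Without both libraries that stood apart 8 of 8 tested members were called, where 57.8% of all genes were. In p53-deleted cells 3 of 9 were higher (PTGS2, HPGD and PTGR1) and 3 lower (PTGS1, PTGES and PTGES3), where 56.1% of 12750 genes were called, 27.8% higher and 28.3% lower. The median log2 difference was 0.24 over these 8 members in p53 WT cells and 0.09 over 9 in p53-deleted cells, against -0.02 and 0.01 over all genes tested. The response itself differed between the backgrounds for 6 of 9 members, 4 with a higher and 2 with a lower value without p53, where 17.0% of 13192 genes were called, 9.20% with a higher and 7.79% with a lower value. The libraries of vector and H-Ras did not overlap for 42.4% of all genes tested in p53 WT cells and 63.2% in p53-deleted cells, which is the background for the statements on overlap below.

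**Figure D1:**
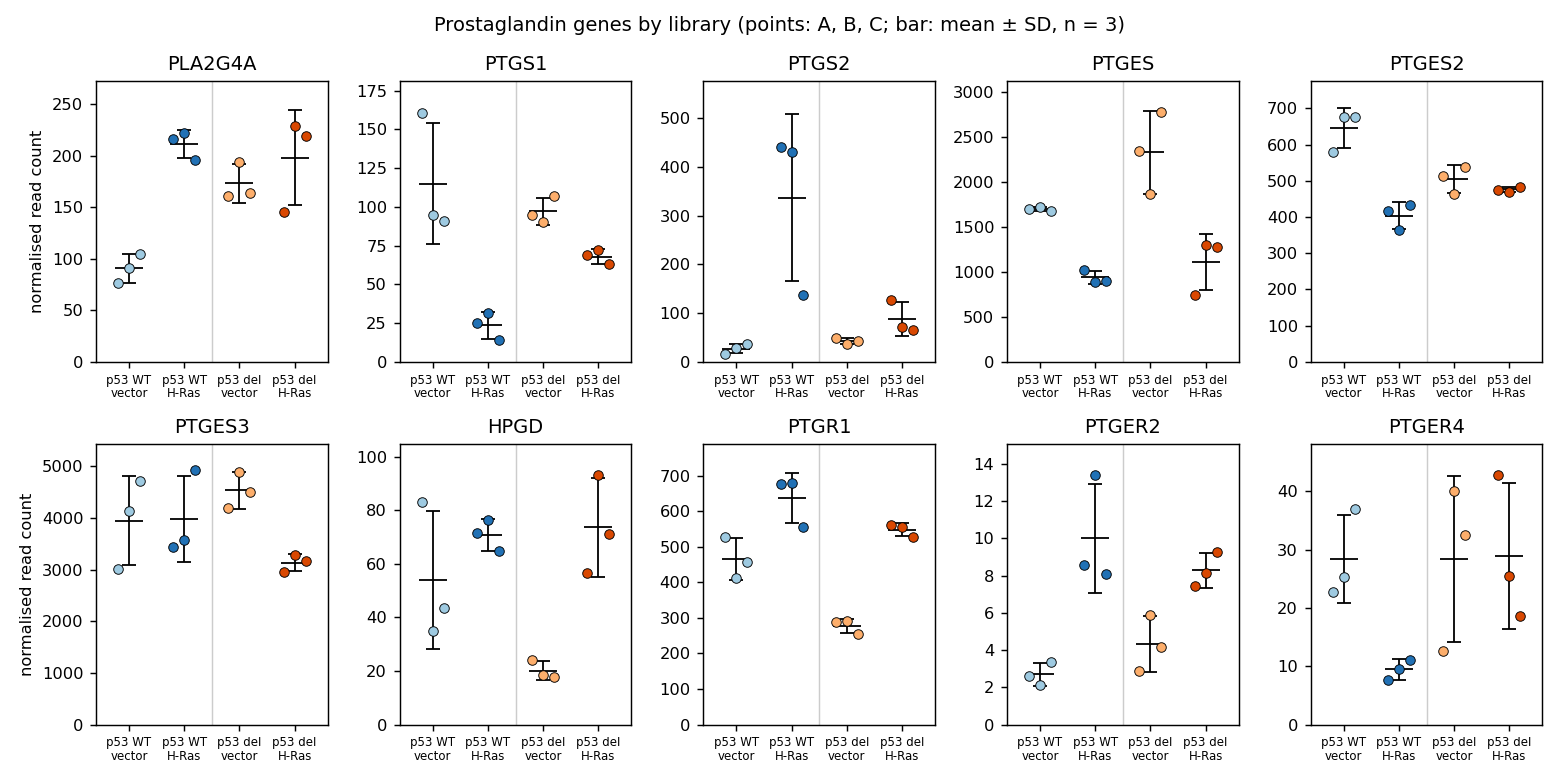
Normalised read counts of the 10 members in the 3 libraries (points) of each of 4 groups, with the mean and SD as bars and each vertical axis starting at 0. PTGS2 reached 441 and 431 in 2 of the 3 p53 WT H-Ras libraries and 137 in the other, while PTGER2 stayed at 13.4 or below in every library.

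PLA2G4A, the phospholipase that opens the pathway, rose with H-Ras in p53 WT cells and was higher in the p53-deleted than in the p53 WT vector line. It was at 76.2, 90.6 and 105 normalised counts in p53 WT vector libraries A, B and C and at 216, 222 and 196 with H-Ras, with no overlap. That is a log2 difference of 1.22 ± 0.16 (SE, adjusted p = 0.0015, limma), and 1.16 without both libraries that stood apart. In p53-deleted cells the vector libraries were already at 160.4, 194 and 164, and the H-Ras libraries at 145, 229 and 219 overlapped them (log2 0.17 ± 0.17, limma adjusted p = 0.43). H-Ras library A of that group was the low one, and without it the difference was 0.38 with a limma adjusted p of 0.038. On reads of all 12 libraries scaled together, the p53-deleted vector line was higher than the p53 WT vector line by 0.77 ± 0.18 (log2, limma adjusted p = 0.0055), and the H-Ras lines differed by -0.28 (95% interval -0.67 to 0.11, limma adjusted p = 0.25). The difference of the responses was -1.05 ± 0.26 (log2, limma adjusted p = 0.015), and -0.99 without both libraries.

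PTGS2, the inducible cyclooxygenase, had the largest response of the tested members in p53 WT cells. In p53-deleted cells those of HPGD (log2 1.80) and PTGES (-1.10) were larger, and that of PTGR1 (0.98) was about the same. In p53 WT vector libraries PTGS2 was at 16.6, 29.5 and 35.8 normalised counts, from 19, 28 and 32 reads. With H-Ras it was at 441, 431 and 137, so that every H-Ras library was above every vector library and library C was less than the others. The mean went from 27.3 ± 9.75 to 337 ± 172 (SD, n = 3), a log2 difference of 3.46 ± 0.49 (SE, adjusted p = 0.0022, limma) on the log2(count + 1) scale. Without both libraries that stood apart, in which PTGS2 deviated from the other libraries of the group by -0.92 and -1.66 (log2), the difference was 3.71. In p53-deleted cells PTGS2 went from 49.3, 37.1 and 41.9 to 128, 71.0 and 66.0, again without overlap. The log2 difference there was 0.97 ± 0.25 (limma adjusted p = 0.0061), and library A, the highest, also had the lowest cell cycle genes of its group (-0.86). The call rested on the fit: with the spread of all 12 libraries the adjusted p was 0.074 (limma), and in the authors' deposited table the fold change of 2.061 had an adjusted p of 0.0705. The response was smaller without p53 by 2.49 ± 0.60 on the log2 scale (limma adjusted p = 0.014, and 0.061 with voom weights). Without both libraries that stood apart the difference of the responses was -2.74.

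On the common scale PTGS2 was ordered p53 WT H-Ras (357 ± 184), p53-deleted H-Ras (83.7 ± 32.3), p53-deleted vector (40.2 ± 5.76) and p53 WT vector (28.7 ± 10.2; SD, n = 3 each). The H-Ras lines differed by -1.96 ± 0.42 (log2, p53-deleted minus p53 WT, limma adjusted p = 0.0029), and the libraries of the vector lines overlapped (log2 0.53, 95% interval -0.39 to 1.45, limma adjusted p = 0.38). p53 status cannot be told apart from the pair of lines that carries it in any such comparison.

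PTGS1, the constitutive cyclooxygenase, moved against PTGS2. Its values in p53 WT cells were 160.4, 94.8 and 90.6 in the vector libraries and 24.8, 31.5 and 14.2 with H-Ras. The groups did not overlap, and library A was the highest of the vector group (log2 deviation 0.78). PTGS1 fell by 2.27 ± 0.35 on the log2 scale (limma adjusted p = 0.0032), and without the 2 libraries that stood apart the difference was -1.69 (limma adjusted p = 1.2e-05). In p53-deleted cells the values were 94.7, 89.9 and 107 and then 68.9, 72.0 and 62.9, with a log2 difference of -0.51 ± 0.15 (limma adjusted p = 0.014). That smaller fall did not pass with the spread of all 12 libraries (limma adjusted p = 0.17), without p53-deleted H-Ras library C (0.054) or in the authors' deposited table (adjusted p 0.0541). The responses differed by 1.76 ± 0.39 (log2, limma adjusted p = 0.0098) and by 1.18 without both libraries (0.0041), and the H-Ras lines by 1.41 ± 0.28 (limma adjusted p = 0.0016), with the higher PTGS1 level without p53.

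The share of PTGS2 among the reads of both cyclooxygenases sets these opposite changes side by side within a library, where the size factor cancels. It was 9.41% (exact 95% binomial interval 5.76 to 14.3), 23.7% (16.4 to 32.4) and 28.3% (20.2 to 37.6) in the p53 WT vector libraries. With H-Ras it was 94.7% (92.3 to 96.5), 93.2% (90.6 to 95.3) and 90.7% (84.8 to 94.8), so library C, low in PTGS2 counts, was close to the other libraries in this share. In p53-deleted cells the share was 34.2%, 29.2% and 28.2% with vector and 64.9%, 49.6% and 51.2% with H-Ras. The group means were 20.5% ± 9.86, 92.8% ± 2.02, 30.5% ± 3.24 and 55.3% ± 8.41 (SD, n = 3). Both vector to H-Ras differences gave an exact two-sided permutation p of 0.1, the smallest that 3 against 3 libraries allow. These intervals cover counting error, and the reads carry no molecular identifiers.

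**Figure D2:**
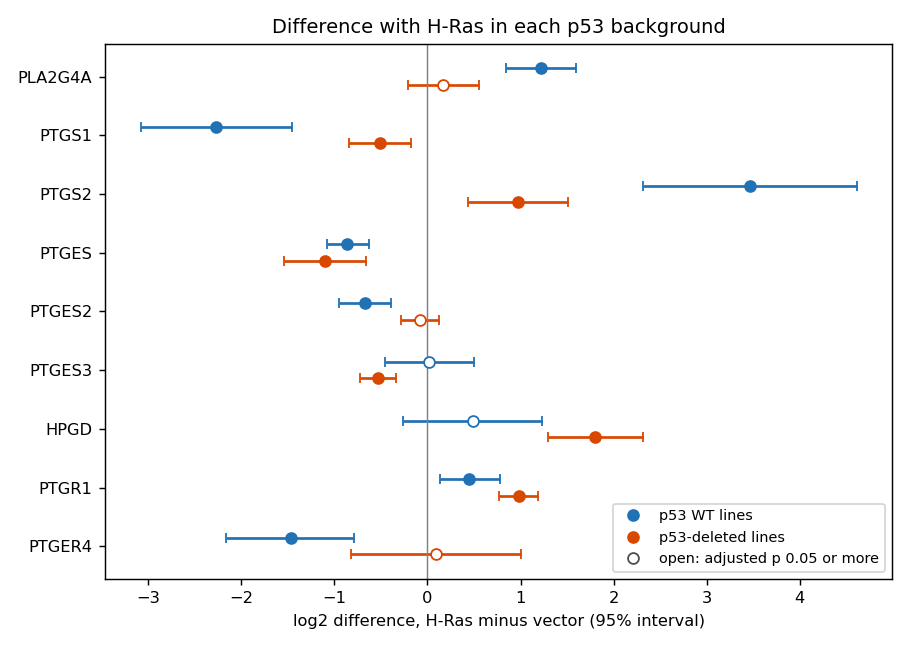
Log2 difference between H-Ras and vector lines for the 9 tested members in the p53 WT (blue) and p53-deleted (orange) background, with 95% intervals from limma and open points where the adjusted p was 0.05 or more. PTGER4 in p53 WT cells passed the filter through the vector group. PTGS2 and PTGS1 lie at 3.46 and -2.27 in p53 WT cells and at 0.97 and -0.51 without p53.

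Of the prostaglandin E synthases, PTGES, the inducible microsomal enzyme that is paired with PTGS2 in inflammation, fell with H-Ras in both backgrounds. It was at 1700.0, 1725 and 1677 normalised counts in p53 WT vector libraries and 1026, 889 and 904 with H-Ras, a log2 difference of -0.86 ± 0.10 (limma adjusted p = 6.9e-04), and -0.83 without both libraries that stood apart. The p53-deleted values were 2347, 1863 and 2783 and then 747, 1296 and 1279 (log2 -1.10 ± 0.20, limma adjusted p = 7.3e-04). Neither pair of groups overlapped, so the synthase was lower in the lines in which PTGS2 was higher. The responses were not called different (log2 -0.24, 95% interval -0.82 to 0.35, limma adjusted p = 0.59).

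PTGES2, a second membrane-associated synthase, fell in p53 WT cells from 580.1, 677 and 676 to 416, 363 and 434 (log2 -0.67 ± 0.12, limma adjusted p = 0.0063), while the authors' deposited table gave an adjusted p of 0.0559. Without both libraries that stood apart the difference was -0.80 and that of the responses 0.71. In p53-deleted cells it was at 514, 463 and 537 with vector and 475, 469.7 and 483 with H-Ras, which overlap (log2 -0.08, 95% interval -0.28 to 0.12, limma adjusted p = 0.46). The difference of the responses was 0.59 ± 0.14 (log2, limma adjusted p = 0.014). As for PLA2G4A, the vector lines already differed: PTGES2 was lower without p53 (log2 -0.51 ± 0.10, limma adjusted p = 0.0018), and the H-Ras lines were at 428 ± 36.9 and 452 ± 6.62 on the common scale.

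PTGES3, the cytosolic synthase that is also the HSP90 co-chaperone p23, was the most abundant member. Its p53 WT values were 3006, 4123 and 4711 with vector and 3434, 3577 and 4932 with H-Ras, with a log2 difference of 0.02 ± 0.20 (limma adjusted p = 0.96). This near-zero difference rested on both libraries that stood apart, the lowest of the vector and the highest of the H-Ras group: without them it was -0.33 (limma adjusted p = 0.0022). In p53-deleted cells PTGES3 fell from 4190.3, 4890.2 and 4508 to 2952, 3282 and 3167 (log2 -0.53 ± 0.09, limma adjusted p = 3.0e-04). The difference of the responses was -0.54 ± 0.23 (log2, limma adjusted p = 0.12), and -0.20 without both libraries.

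HPGD, the enzyme that inactivates prostaglandin E2, rose with H-Ras in p53-deleted cells, where its vector level was the lowest of the 4 groups. It went from 24.2, 18.6 and 17.8 to 56.8, 93.3 and 71.1 normalised counts, with no overlap (log2 1.80 ± 0.23, limma adjusted p = 5.6e-05). In p53 WT cells the vector libraries were at 83.2, 34.8 and 43.6 and the H-Ras libraries at 71.6, 76.5 and 64.7, and vector library A made the groups overlap. The log2 difference was 0.49 ± 0.32 (limma adjusted p = 0.3) with it, 0.85 (limma adjusted p = 0.028) without it, and 0.91 (limma adjusted p = 0.0023) without both libraries that stood apart. The difference of the responses was 1.32 ± 0.41 (limma adjusted p = 0.046), and it fell short of the threshold in 14 of 18 alternatives (limma adjusted p up to 0.11, 0.076 without both libraries that stood apart). The vector lines differed by -1.44 ± 0.29 (log2, p53-deleted minus p53 WT, limma adjusted p = 0.0022), and the H-Ras lines by -0.13 (95% interval -0.76 to 0.51, limma adjusted p = 0.77).

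PTGR1, the reductase that acts after HPGD and also inactivates leukotriene B4, had the same order of group means on the common scale. Its p53 WT values were 528, 412 and 456 with vector and 677, 680.4 and 555 with H-Ras (log2 0.45 ± 0.14, limma adjusted p = 0.049). That call is marginal: it was lost in 6 of 13 alternatives (limma adjusted p up to 0.18), it was 0.65 without both libraries that stood apart (3.1e-05), and the authors' deposited table gave an adjusted p of 0.344. The p53-deleted libraries went from 288, 290.1 and 255 to 560.4, 556 and 527 (log2 0.98 ± 0.09, limma adjusted p = 5.5e-06). The response was larger without p53 by 0.53 ± 0.17 on the log2 scale (limma adjusted p = 0.047), which was lost in 12 of 18 alternatives, with a value of 0.33 (limma adjusted p = 0.09) without both libraries that stood apart. On the common scale the vector line without p53 was lower (log2 -0.90 ± 0.12, limma adjusted p = 8.5e-05).

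HPGD took 4.67%, 1.98% and 2.53% of the reads of HPGD and PTGES, the enzymes that break down and make prostaglandin E2, in p53 WT vector libraries and 6.52%, 7.92% and 6.68% with H-Ras. Without p53 the share went from 1.02%, 0.987% and 0.636% to 7.06%, 6.72% and 5.27%. The group means were 3.06% ± 1.42, 7.04% ± 0.766, 0.880% ± 0.212 and 6.35% ± 0.951 (SD, n = 3), with an exact two-sided permutation p of 0.1 in each background.

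**Figure D3:**
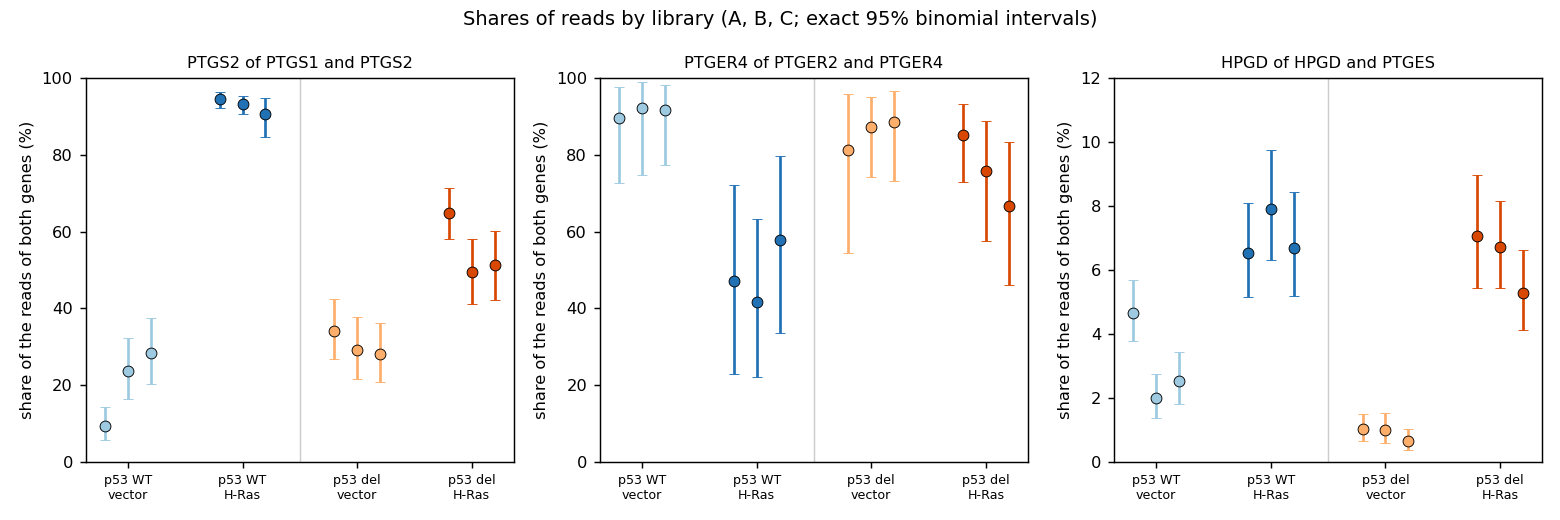
Share in percent of PTGS2 in the reads of both cyclooxygenases, of PTGER4 in the reads of EP2 and EP4, and of HPGD in the reads of HPGD and PTGES, per library of each of 4 groups with exact 95% binomial intervals. The PTGS2 share is 90.7% to 94.7% in the p53 WT H-Ras libraries and 49.6% to 64.9% in the p53-deleted ones.

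The EP receptors were rare mRNAs. PTGER4 (EP4) was at 22.8, 25.3 and 36.9 normalised counts in p53 WT vector libraries and 7.64, 9.56 and 11.1 with H-Ras, a log2 difference of -1.47 ± 0.29. It passed the filter there through the vector group alone and did not pass without both libraries that stood apart, and with no filter on low values its limma adjusted p was 0.02. In p53-deleted cells it varied as much within groups as between them, at 12.6, 40.1 and 32.5 and then 42.8, 25.4 and 18.6 (log2 0.09, 95% interval -0.82 to 1.00, limma adjusted p = 0.87). The difference of the responses was 1.57 ± 0.58 (log2, limma adjusted p = 0.08), and between the H-Ras lines PTGER4 was higher without p53 by 1.30 ± 0.41 (limma adjusted p = 0.024).

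PTGER2 (EP2) was too low to pass the filter, with 3, 2 and 3 reads in p53 WT vector libraries and 9, 14 and 8 with H-Ras. In sum 8 reads went to 31, a ratio of 3.75 scaled for size factors (exact 95% interval 1.69 to 9.45, counting error alone). Without the filter its log2 difference was 1.56 ± 0.42 (limma adjusted p = 0.037), whereas the authors' deposited table gave an adjusted p of 0.117. The p53-deleted libraries held 3, 6 and 4 reads and then 8, 8 and 9 (13 and 25 in sum, ratio 1.91, exact 95% interval 0.942 to 4.07; log2 0.84, limma adjusted p = 0.17 without the filter). PTGER4 therefore took 89.7%, 92.3% and 91.7% of the reads of both receptors in p53 WT vector libraries and 47.1%, 41.7% and 57.9% with H-Ras (exact two-sided permutation p = 0.1). In p53-deleted cells these shares were 81.2%, 87.2% and 88.6% and then 85.2%, 75.8% and 66.7% (exact permutation p = 0.2).

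Between the vector lines 1 of 9 tested members was higher without p53 (PLA2G4A) and 3 were lower (HPGD, PTGR1 and PTGES2), where 33.0% of 13192 genes were called, 16.2% higher and 16.9% lower, and the libraries of 44.6% did not overlap. Between the H-Ras lines 2 were higher (PTGS1 and PTGER4) and 3 lower (PTGS2, PTGES3 and PTGR1), where 37.3% were called, 19.2% higher and 18.2% lower, and 53.1% did not overlap. The PTGES3 difference was -0.48 ± 0.16 and the PTGR1 difference -0.37 ± 0.12 (log2, limma adjusted p = 0.032 and 0.026). Without p53-deleted H-Ras library A or B, 2 members were called, and 3 were called without p53 WT H-Ras library A or p53-deleted H-Ras library C.

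Per kilobase of GENCODE v29 exon sequence, on the common scale, PTGES3 at 876 to 1252 over the 4 group means and PTGES at 525 to 1155 were the most abundant members in each group. PTGES2 was at 141 to 223 and PTGR1 at 69.4 to 179.6, with PTGR1 above PTGES2 in the p53 WT H-Ras line (179.6 against 141), and PLA2G4A was at 33.1 to 77.8. PTGS1 exceeded PTGS2 in both vector lines (20.9 against 5.44 in p53 WT, 15.8 against 7.63 without p53), and PTGS2 exceeded PTGS1 in both H-Ras lines (67.8 against 4.30, and 15.9 against 11.1). HPGD was at 3.43 to 13.6, PTGER4 at 2.52 to 7.51 and PTGER2 at 1.14 to 4.29. No member shared exonic bases with another gene of that annotation, and the 7 pseudogenes of PTGES3 and PTGER4 in the tables averaged 0.997 or less in every group.

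The other genes of the pathway moved in several directions, and their counts stand against 25.6% of all genes called in p53 WT and 56.1% in p53-deleted cells. Without both p53 WT libraries that stood apart, a setting chosen for these lists after seeing the data, 57.8% of all genes were called in p53 WT cells. Among 10 symbols of other prostanoid synthases, 6 genes were tested, and 2 of 5 were higher in p53 WT cells and 4 of 6 in p53-deleted cells with 0 lower (median log2 0.20 and 1.23, against -0.02 and 0.01 over all genes), leaving out TBXAS1 in p53 WT cells, which passed the filter through the H-Ras group. AKR1B1, an aldose reductase with prostaglandin F synthase activity, went from 4898 ± 2372 to 20899 ± 8999 in p53 WT cells (log2 2.11 ± 0.38, limma adjusted p = 0.0063, and 2.69 without both libraries) and from 2144 ± 209 to 10988 ± 440.3 without p53 (log2 2.36 ± 0.09, limma adjusted p = 4.3e-09). AKR1C3, a prostaglandin F synthase with near-identical relatives that the counting could split, rose from 582 ± 205 to 1785 ± 566 and from 150.3 ± 20.4 to 2227 ± 98.5, and its response was larger without p53 by 2.28 ± 0.35 (log2, limma adjusted p = 0.0011). Without both libraries its p53 WT difference was 2.18 in place of 1.61 and that of the responses 1.70. TBXAS1, thromboxane synthase, rose from 17.2 ± 5.63 to 65.2 ± 13.9 and CBR1, a carbonyl reductase, from 336 ± 15.8 to 502 ± 51.0 in p53-deleted cells. The prostaglandin D synthases HPGDS and PTGDS averaged 0.322 or less in every group.

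Of 7 other prostanoid receptors, 1 passed the filter in p53 WT and 3 in p53-deleted cells, each through the H-Ras group. The filter thus favoured a difference, and no test is given. PTGFR, the prostaglandin F receptor, was at 6.63 ± 3.29 with vector and 94.9 ± 24.6 with H-Ras in p53 WT cells. It had 0 reads in the p53-deleted vector libraries and 27.2 ± 5.93 normalised counts with H-Ras, which is at least 27.3-fold higher than the floor of 3 reads over the group. PTGIR, the prostacyclin receptor, was at 2.01 ± 1.75 and 59.0 ± 11.8 without p53, and TBXA2R, the thromboxane receptor, at 8.28 ± 0.813 and 19.2 ± 4.77. PTGER1, PTGER3 and PTGDR were at 0 in every library.

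For transport and breakdown, 5 of 7 genes were tested in each background, and 1 of 5 was lower in p53 WT and 2 of 4 in p53-deleted cells (median log2 -0.20 and -0.43). CYP4F3, at 12.3 with vector and 0 with H-Ras, is left out there since it passed the filter through the vector group. SLCO2A1, the prostaglandin uptake transporter, fell from 52.6 ± 16.5 to 21.7 ± 4.37 in p53 WT cells (log2 -1.20 ± 0.30, limma adjusted p = 0.026) and averaged 0.699 and 7.94 in p53-deleted vector and H-Ras lines. ABCC4, which exports prostaglandin E2, fell without p53 from 593 ± 51.3 to 387 ± 27.7 (log2 -0.61 ± 0.10, limma adjusted p = 2.9e-04), and its responses differed by -0.58 ± 0.17 (limma adjusted p = 0.037). SLCO3A1, a relative of SLCO2A1, fell there from 512 ± 31.3 to 310.0 ± 3.86. Its responses were not called different with all libraries (log2 -0.40, limma adjusted p = 0.078), and the difference without both p53 WT libraries was -0.51 (limma adjusted p = 0.018, likely too small).

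Other phospholipases A2 were higher in 2 of 5 tested genes in p53 WT cells (PLA2G15 and PNPLA8) and in 3 of 5 without p53 (PLA2G16, PNPLA8 and PLA2G12A), with 0 lower, and the latter share is near that of all genes. PNPLA8, a calcium-independent phospholipase, went from 286 ± 69.5 to 579 ± 151 and from 243 ± 38.4 to 448 ± 27.2. PLA2G16 rose from 119 ± 10.4 to 271 ± 43.6 without p53 and averaged 328 and 337 in the p53 WT lines (difference of responses 1.14 ± 0.28, limma adjusted p = 0.015). Without both libraries the p53 WT difference of PLA2G16 was 0.41 (limma adjusted p = 0.0032), making 3 of 5 genes higher there.

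Of 13 genes for arachidonate supply and reacylation, 3 were higher and 2 lower in p53 WT cells, and 7 higher and 5 lower without p53. Without both p53 WT libraries 8 were higher and 2 lower in p53 WT cells, with FADS1 (log2 0.94), ANXA1 (0.45) and FADS2 (0.30, against -0.17 with all libraries) among the former. ACSL4, the acyl-CoA synthetase that prefers arachidonate, rose in both, from 1443 ± 189 to 3274 ± 621 and from 1188 ± 68.1 to 3677 ± 157. FADS1, the desaturase that makes arachidonate, rose from 977 ± 110.3 to 2061 ± 184 without p53, and FADS2 fell there from 166 ± 3.87 to 88.6 ± 18.0. MGLL, the lipase that frees arachidonate from monoacylglycerols, rose from 844 ± 51.9 to 1523 ± 245 in p53 WT cells and fell from 1168 ± 144 to 776 ± 93.9 without p53, with a difference of the responses of -1.42 ± 0.19 (limma adjusted p = 4.2e-04). ANXA1, a phospholipase inhibitor, fell without p53 from 6592 ± 418 to 3549 ± 368 (difference of the responses -1.15 ± 0.18, limma adjusted p = 0.0011).

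The lipoxygenase and leukotriene list, the neighbouring branch of arachidonate metabolism, had 1 higher of 6 tested in p53 WT cells and 2 of 4 without p53. Of all genes 25.6% and 56.1% were called, and with so few genes these counts cannot be told apart from those shares. ALOX12 and LTB4R are left out of the latter since they passed the filter through the H-Ras group. ALOX5AP, which presents arachidonate to ALOX5, rose from 28.4 ± 7.23 to 245 ± 43.1 in p53 WT cells (log2 3.08 ± 0.24, limma adjusted p = 1.5e-04) and from 97.3 ± 58.3 to 287 ± 182 without p53, whereas ALOX5 itself was at 0 in every library. ALOX15B rose from 222 ± 65.5 to 566 ± 76.1 without p53 and went from 284 ± 217 to 947 ± 453 in p53 WT cells (log2 1.84, limma adjusted p = 0.054), and the responses were not called different (log2 -0.45, limma adjusted p = 0.68). Without both libraries that stood apart, ALOX15B was higher in p53 WT cells by 2.92 (limma adjusted p = 3.1e-12), and the difference of its responses was -1.54 (0.0018). In that setting 3 of 5 genes of the list were higher in p53 WT cells, where 57.8% of all genes were called.

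Genes that cyclic AMP induces, as EP2 and EP4 can, were higher in 3 of 5 in p53 WT cells and in 6 of 7 without p53, with 0 lower (median log2 0.87 and 0.68). Left out are NR4A2 in both backgrounds and NR4A1, PDE4B and RGS2 in p53 WT cells, which passed the filter through the group where they were high. NR4A2 was the lower with H-Ras in p53 WT cells, so that 0 lower holds only for the genes counted. Without both libraries that stood apart 4 of 8 tested genes were higher in p53 WT cells, where 57.8% of all genes were called. AREG, the EGF receptor ligand amphiregulin, rose from 179.8 ± 39.8 to 563 ± 106 and from 104 ± 38.1 to 161 ± 11.9. PDE4D, a cyclic AMP phosphodiesterase, rose from 136 ± 24.0 to 393 ± 48.0 and from 100.2 ± 11.5 to 181 ± 9.75. With all libraries the AREG and PDE4D responses were not called different (log2 -0.96 and -0.68, limma adjusted p = 0.066 and 0.051). Without both libraries the differences were -0.98 and -0.88 (log2, limma adjusted p = 0.033 and 0.0096, likely too small). The nuclear receptor NR4A2 was at 24.1 ± 8.43 and 9.72 ± 1.52 in p53 WT cells and at 14.5 ± 9.21 and 83.4 ± 11.9 without p53. No test is given for it, since it passed the filter through 1 group in each background. NR4A1 rose from 27.6 ± 8.71 to 125 ± 30.7 without p53. These genes also answer to other signals, and the part of prostaglandin receptors in their levels was not tested.

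Among 9 regulators of PTGS2 mRNA, 8 were tested, and 1 was higher in p53 WT cells. Without both libraries that stood apart 3 were higher and 2 lower there, with CEBPB (log2 0.68) and ZFP36 (0.31) higher and KHSRP (-0.89) and ELAVL1 (-0.51) lower. ZFP36L1, a protein that promotes decay of AU-rich mRNAs, rose from 2238 ± 132 to 4157 ± 871 there and from 2948 ± 276 to 4187 ± 448 without p53. In p53-deleted cells 3 were higher and 3 lower: CEBPB, a transcription factor that binds the PTGS2 promoter, rose from 373 ± 15.7 to 803 ± 51.4 (difference of the responses 0.65 ± 0.19, limma adjusted p = 0.031), and ZFP36 (tristetraprolin) from 449 ± 48.8 to 692 ± 24.4. KHSRP, which promotes mRNA decay, fell there from 3414 ± 83.9 to 2493 ± 239, and ELAVL1, which stabilises PTGS2 mRNA, from 1126 ± 61.5 to 900.1 ± 55.2.

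**Figure D4:**
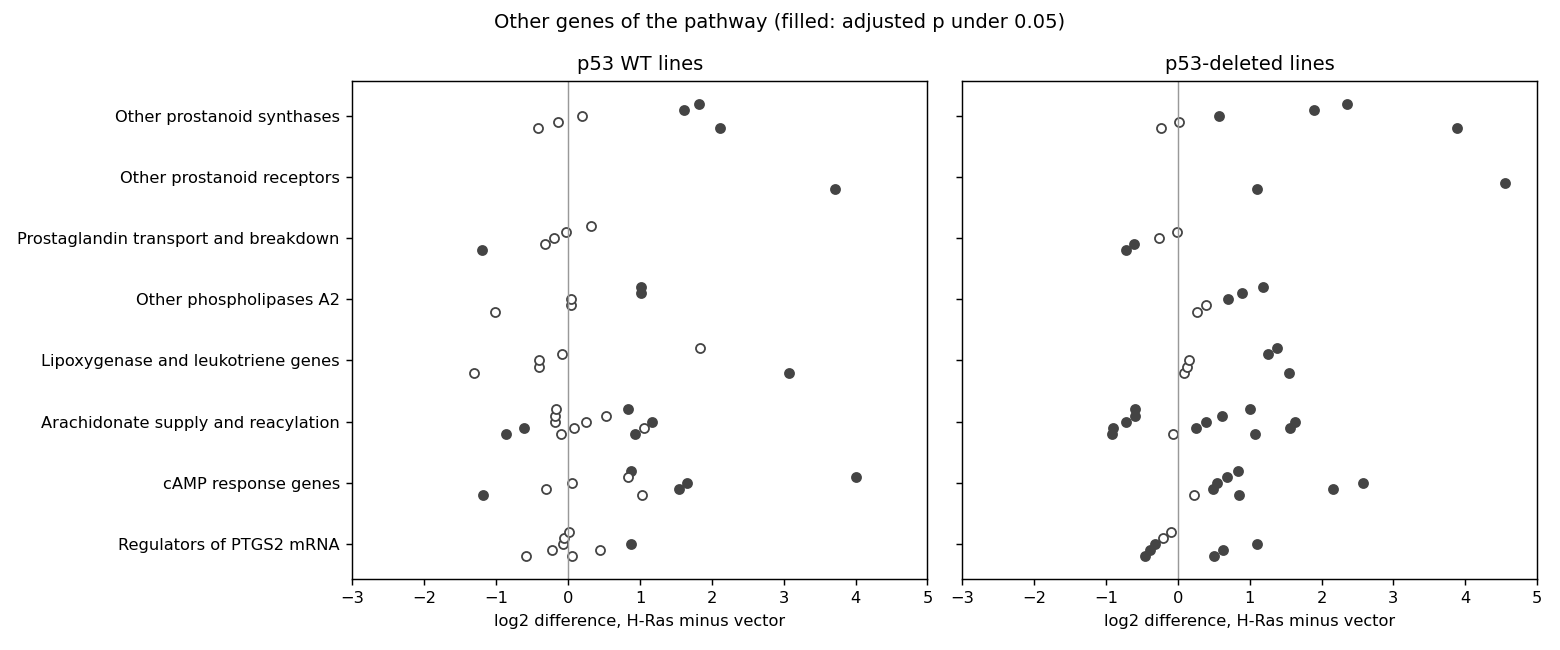
Log2 difference between H-Ras and vector lines for each tested gene of the 8 other pathway lists, in p53 WT (left) and p53-deleted lines (right), filled where the limma adjusted p was under 0.05, without PTGFR and CYP4F3 in p53-deleted lines, which had a group at 0 reads. AKR1C3 lies at 3.89 in the p53-deleted panel. Some filled points are genes that passed the filter through 1 group, where the filter itself favoured a difference. These are PTGFR, TBXAS1, PDE4B and NR4A2 on the left and PTGIR, TBXA2R, ALOX12 and NR4A2 on the right.

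Across the 12 libraries on the common scale, the 5 of 9570 genes whose log2 values were most like those of PTGS2 were RTN4, SLC30A9, NT5E, CHSY1 and PPP2R2C (Pearson r 0.951 to 0.967). NT5E, the cell-surface enzyme CD73, averaged 1638 and 5261 in the p53 WT vector and H-Ras groups and 1953 and 3079 in the p53-deleted ones. The genes most like HPGD were PHF21A, C1S, ABCA6, THRA and MOB3A (r 0.950 to 0.956), and ABCA6, a lipid transporter, averaged 126, 200.3, 4.70 and 168. The points share 4 lines, so these correlations mostly restate the order of the groups and carry no p.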

How the data were processed

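The 12 libraries of MCF10A cells form 4 groups of 3 by their labels. TRIzol extraction, oligo-dT beads and the TruSeq kit are named per the labels' protocols, and FastQC, Trimmomatic, TopHat, SAMtools and HTSeq on GRCh37 per the submitters' processing notes. Their versions are not given in the sources used here, nor are an annotation, a strand setting or a tool for normalising and testing. The authors deposited 2 tables, each with group means of a normalised signal, their fold change (a ratio of means) and a p-value with its adjusted value, per the file headers. That the signal is the mean of reads divided by size factors was read from the values. The headers of the p53 WT table carry another line number than its name does, and its columns were taken as the groups that the samples' descriptions assign to it.

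The deposited means have 15 digits, so the whole reads of the 3 libraries that give each mean could be searched, and 99.76% to 99.98% of genes above 0 per group had a unique solution. Of 400 simulated means per group 0 were solved wrongly, and of 1000 shifted means 0 were solved. Every SD, n = 3 and test rests on these solved reads. They were divided by the table's size factors for each H-Ras comparison, and scaled together by medians of ratios for the p53 comparisons and the difference of the responses, since the tables were normalised separately.

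Tests were two-sided moderated tests on log2(value + 1) with a mean-variance trend (limma 3.58.1 under R 4.3.3), for genes with at least 10 normalised counts in at least 3 libraries, with Benjamini-Hochberg adjustment over all genes tested. The procedure was tested on simulated data. A check of the deletion itself is not reported here. Count models were not run, since no deposited column holds counts, and this differs from what a table of raw counts would allow. Shares of reads have exact (Clopper-Pearson) 95% binomial intervals. Sequences are RefSeq's (GRCh38.p14) and exon lengths GENCODE v29's, both on another build than the files' GRCh37. The members, the 8 pathway lists and the marker lists were chosen with earlier results of these data known. Of the other lists, genes are named that were called with a higher group mean of at least 50, up to 6 per list and comparison, and the 5 genes most like PTGS2 and HPGD were taken among those with a group mean of at least 100. Of the 10 prostanoid synthase symbols, PRXL2B was found under its older symbol FAM213B. Marker genes without a unique solution (1 basal marker, KRT5) were left out of the sums. Alternatives were other pseudocounts (0.5 and 5), no filter, upper-quartile scaling, voom weights, all 12 libraries in a fit, and leaving out libraries.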

Additional observations from a re-analysis of the deposited data

Results flagged for a closer look

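For 6 of the 9 tested members the H-Ras response itself differed between the p53 backgrounds, by a test of the difference in a joint fit of 12 libraries (limma, Benjamini-Hochberg adjusted p under 0.05). Of all 13192 genes tested, 17.0% were called in the same way. Each value is the log2 response without p53 minus that in p53 WT cells. PTGS2 responded less without p53 (-2.49, from 3.46 in p53 WT to 0.97), as did PLA2G4A (-1.05, from 1.22 to 0.17). PTGS1 and PTGES2 fell less or were not called without p53, with differences of 1.76 and 0.59. HPGD and PTGR1 had higher responses without p53, by 1.32 and 0.53, and both of these calls were close to the threshold. They were lost in 14 (HPGD) and 12 (PTGR1) of 18 alternatives. For PLA2G4A, PTGES2, HPGD and PTGR1 the vector lines of the 2 backgrounds differed as well, and for PTGS2, PTGS1 and PTGR1 the H-Ras lines did.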

How the results depend on the processing

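No paired analysis was possible because neither table carries columns of single libraries, and the libraries solved from the means cannot be matched to the labelled replicate numbers. Over the alternatives, 647 values of single members kept their direction and side of the threshold, 48 lost the call, 4 gained it and 12 changed sign, with 1 value (PTGES3 without both libraries) counted in both of the last. In p53 WT cells the count of all genes called, 3188, was 4832 with all 12 libraries in the fit, 6788 without the 2 libraries that stood apart (A of the vector and C of the H-Ras group), and 1697 to 4111 with single libraries left out, while 6 to 8 members were called. These member counts include PTGER4 wherever it was tested, although the filter favoured its lower value with H-Ras. The count of genes whose response differed was 2242 and ranged from 1457 to 2216 with single libraries left out, and the 5 members called between the H-Ras lines ranged from 2 to 5. Sign changes touched members near 0. With single libraries left out PTGES3 in p53 WT cells ranged from -0.17 (without vector A) to 0.16 and was -0.15 without H-Ras C and -0.33 without both, and between the vector lines it ranged from -0.12 (without A, also without both) to 0.20. PTGER4 in p53-deleted cells ranged from -0.39 (without vector A) to 0.41 and was -0.22 without H-Ras A, and between the vector lines it ranged from -0.58 to 0.21 (without p53-deleted vector A). Without p53-deleted H-Ras A the PTGES difference of responses was 0.03 (lowest -0.39), the HPGD difference between H-Ras lines 0.05 (lowest -0.31) and the PTGES difference between them 0.30, while the last was -0.10 and -0.09 without p53-deleted H-Ras B or C. The cause was not tested. PTGER4 did not pass the filter in p53 WT cells without the 2 libraries, and 2 to 14 reads per library limit what can be said of PTGER2.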
